A study of Homo sapiens with 4 samples.

Results

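Ubiquitin is encoded in human cells by a small set of genes, and UBB and RPS27A, which are described here, are among them. Both were chosen by their FPKM (fragments per kilobase of transcript, adjusted for library size) in these same libraries, because UBB was very low in 1 line, RKN. Their levels are therefore given as a description, with no test. They were 2 of the 23577 genes read from the deposited table. The question was whether RPS27A made up for low UBB in RKN. Further ubiquitin-coding RNA was not analysed here, so no sum below is the whole of it in a line.

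The data were poly(A) RNA-seq profiles of RKN, SKLMS1, SKN and SKUT1, 4 established human cell lines of leiomyosarcoma, a cancer of smooth muscle type, with 1 library per line. All 4 lines were untreated and grew in the same kind of medium with fetal bovine serum, and the labels gave no genotype, allele or agent for any of them. With 1 library per line there was no replicate spread, so every difference below is a size and none of them was tested.

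Ubiquitin is a small protein that is joined to other proteins to mark them for the proteasome, for sorting or for signalling. It is never made on its own. UBB encodes a chain of ubiquitin units joined head to tail (polyubiquitin), and deubiquitinating enzymes cut the chain into single units. RPS27A encodes a single unit fused to the ribosomal protein eS31, so it feeds both the ubiquitin pool and the ribosome. UBB is known as a stress-inducible gene, and in mouse its loss lowers the ubiquitin pool in some tissues.

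In the GENCODE release 29 transcripts, which follow GRCh38 and may not be the authors' annotation, the reference UBB transcript, from chromosome 17, is 1225 bases long and encodes 3 units of 76 residues followed by 1 further residue. The RPS27A transcript, from chromosome 2, is 1071 bases long and encodes 1 unit followed by 80 residues of the ribosomal protein. The units are the same protein in both genes, so what separates their RNA is the choice of codons. They are printed here because reads that lie within the units can be told apart only at these differences. The coding sequences of the units of UBB and RPS27A run 5′ to 3′, and capitals mark the bases that differ from UBB unit 1.
UBB unit 1: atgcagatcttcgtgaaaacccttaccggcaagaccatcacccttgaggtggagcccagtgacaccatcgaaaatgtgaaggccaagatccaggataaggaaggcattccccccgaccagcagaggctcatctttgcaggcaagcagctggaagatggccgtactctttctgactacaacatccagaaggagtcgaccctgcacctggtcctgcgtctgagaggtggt
UBB unit 2: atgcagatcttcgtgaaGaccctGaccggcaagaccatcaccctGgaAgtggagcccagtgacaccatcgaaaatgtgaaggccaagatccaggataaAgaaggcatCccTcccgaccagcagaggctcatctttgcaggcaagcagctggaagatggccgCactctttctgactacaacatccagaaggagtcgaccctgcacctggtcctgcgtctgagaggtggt
UBB unit 3: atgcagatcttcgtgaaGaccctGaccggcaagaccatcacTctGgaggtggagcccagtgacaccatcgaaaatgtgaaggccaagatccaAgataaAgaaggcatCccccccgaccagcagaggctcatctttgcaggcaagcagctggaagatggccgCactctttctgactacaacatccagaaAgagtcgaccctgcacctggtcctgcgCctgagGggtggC
RPS27A unit: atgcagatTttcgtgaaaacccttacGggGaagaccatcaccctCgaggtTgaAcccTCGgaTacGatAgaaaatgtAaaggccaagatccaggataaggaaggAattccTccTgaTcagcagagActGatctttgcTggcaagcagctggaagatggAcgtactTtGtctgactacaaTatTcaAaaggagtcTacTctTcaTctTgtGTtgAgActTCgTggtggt
The UBB units 2 and 3 differed from unit 1 at 8 and 12 of 228 bases. The RPS27A unit differed from UBB unit 1 at 38 bases, an identity of 83.3%, and the longest run shared exactly by any UBB unit and the RPS27A unit was 26 bases. A read of 75 bases was thus longer than any stretch that the UBB and RPS27A units share exactly. Within UBB, units 2 and 3 share an exact run of 77 bases, so a read inside that run matches both units. Runs that cross from one unit into the next were not compared, so longer repeats within UBB are possible.

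UBB stood at an FPKM of 0.232 in RKN, against 551 in SKLMS1, 608 in SKN and 718 in SKUT1. RKN lay apart from the other 3 lines, which were within 1.30-fold of each other. In RKN, UBB was at 0.0371% of the mean of the other lines. The linear ratio to RKN was 2371 for SKLMS1, 2617 for SKN and 3087 for SKUT1. On the log2(FPKM + 1) scale, which is used for all differences below and understates those of low genes, UBB in RKN lay below the mean of the other 3 lines by a difference of -8.98. This was the lowest of the differences of RKN over the 13713 genes compared, those whose FPKM reached 1 in any line. Because UBB was selected on this contrast, its place is a description only. At least 4-fold below the lowest other line in RKN were 226 genes, 1.65% of those compared, and UBB was one of them. In the other 3 lines UBB was among the most abundant genes, above 99.1 to 99.2% of the genes compared, whereas in RKN it was above 10.1% of them. In bulk RNA, fewer cells with the transcript and less of it per cell cannot be told apart.

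The low value in RKN was not an exact 0. The table holds no read totals. From the steps between low values of genes with 1 transcript, with an assumed fragment length of 200 bases, the libraries were estimated at 33200000 reads in RKN, against 30300000 for SKLMS1, 25400000 for SKN and 24100000 for SKUT1. At these totals the UBB level corresponded to about 7.92 reads in RKN, against about 17137 in SKLMS1, 15856 in SKN and 17745 in SKUT1. These are estimates, not counts, and only 61.9 to 63.4% of the low values used came within 0.1 of a whole read count. RKN had the highest estimated total of the 4.

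Pseudogenes bear on how such reads are placed. Of the 1151 windows of 75 bases along the UBB transcript, 91.7% occurred exactly in no other gene's transcript, and 71.8% had no match in another gene with 1 mismatch allowed. The matches lay in UBBP4, which shared 26.3% of the windows within 1 mismatch, and UBBP1, which shared 5.04%. RPS27A shared more. Of its 997 windows, 80.6% occurred exactly in no other gene's transcript and 55.3% had no match with 1 mismatch allowed. In all, 8 other genes held the rest, led by its pseudogene RPS27AP16 with 34.9%. How reads that match several places were handled is not given in the sources used here, so UBB and RPS27A levels are uncertain. The shares of windows do not bound that error. RPS28, a ribosomal protein gene, was at 0.370 in SKLMS1 and 0 in SKUT1, against 146 in RKN and 211 in SKN. Further genes were at or near 0 in every line. The ribosomal protein genes RPS18 and RPS17L were listed at 0 throughout. RPL21 was at most 0.0883, in RKN, and RPS27 at most 0.815, in SKN. PSMC1, a proteasome gene, was at most 0.444, in SKUT1. The filter on FPKM left these genes out of the lists below. Unlike UBB, they were low in all lines and not in RKN alone. Values near 0 thus occur for several other genes, and whether UBB in RKN is a failed estimate was not tested.

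**Figure D1:**
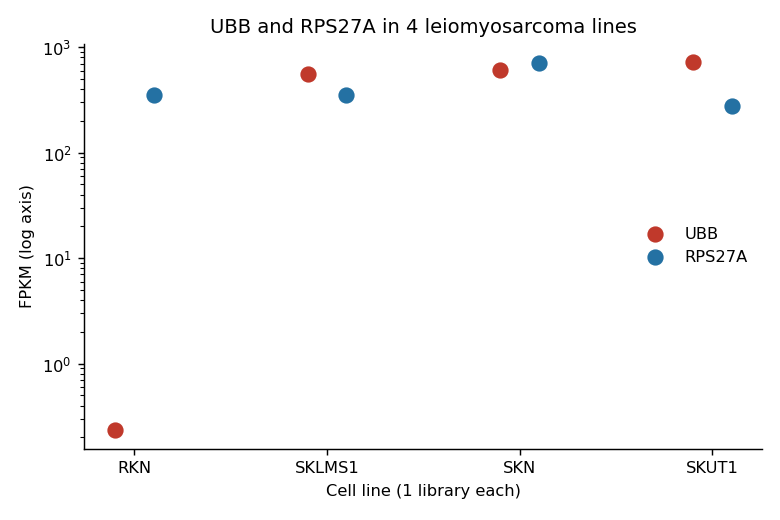
FPKM on a log axis of UBB and RPS27A in RKN, SKLMS1, SKN and SKUT1, with 1 point per gene and library. UBB in RKN is the single point near the bottom, at 0.232, and the remaining 7 points lie between 275 and 718.

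RPS27A stood at an FPKM of 352 in RKN, against 349 in SKLMS1, 714 in SKN and 275 in SKUT1. RKN lay between the other lines, close to SKLMS1 (ratio 1.01) and above SKUT1 (ratio 1.28), and at 0.493 of SKN. RKN minus the mean of the other 3 lines was -0.22. The sign turned on SKN: without that line the difference was 0.18, and it was 0.01 against the median of the other lines. The high line was SKN. RPS27A was at 714 in SKN, against 352 in RKN, 349 in SKLMS1 and 275 in SKUT1, a difference of 1.14 from the mean of the other 3. Of all genes compared, 9.97% were at least 2-fold higher in SKN on the same measure.

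RPS27A was neither 2-fold higher in RKN, a size that 11.6% of all genes reached, nor 2-fold lower, a size that 16.6% reached.

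FPKM columns of these libraries summed to different totals, 446954 in RKN, against 494047 for SKLMS1, 538300 for SKN and 619584 for SKUT1, so the scale matters for small differences. With each column rescaled to the same sum (TPM, a transcript's share of all transcripts), RPS27A was at 788 in RKN, against 707 in SKLMS1, 1326 in SKN and 444 in SKUT1. UBB remained far apart, at 0.520 in RKN, against 1116 in SKLMS1, 1130 in SKN and 1158 in SKUT1. TPM moved the median difference of RKN over all genes to 0.24, against -0.04 on the FPKM scale, and the RPS27A difference to 0.08, so its sign depended on the scale.

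To see how far RPS27A filled the gap, the levels of both genes were added within each line. UBB and RPS27A together came to a summed FPKM of 352 in RKN, against 901 in SKLMS1, 1322 in SKN and 993 in SKUT1. RKN held 32.9% of the mean of the others on the FPKM scale and 40.2% on the TPM scale, the lowest of the 4 lines on both. UBB was selected for its low value in RKN, and UBB alone in each other line (551 to 718) exceeded the RKN sum. The low place of RKN is thus no result apart from that choice. To reach the lowest sum of another line, RPS27A would have had to stand 2.56-fold higher in RKN than it did, and 3.04-fold higher to reach their mean. On the TPM scale these folds were 2.03 and 2.49.

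A UBB transcript carries 3 units and an RPS27A transcript carries 1, so the sum was also taken in units, as FPKM times the units per reference transcript. The number of units in these lines' own genes was not measured. Both genes gave 353 FPKM units in RKN, against 2003 in SKLMS1, 2539 in SKN and 2428 in SKUT1. RKN was again lowest, at 15.2% of the mean of the others on the FPKM scale and 18.7% on the TPM scale. In units RPS27A would have had to stand 5.69-fold higher in RKN to reach the lowest other line and 6.60-fold higher to reach the mean. In none of these sums did RPS27A bring RKN up to another line. These are sums over the RNA of 2 genes, and neither protein nor free ubiquitin was measured.

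**Figure D2:**
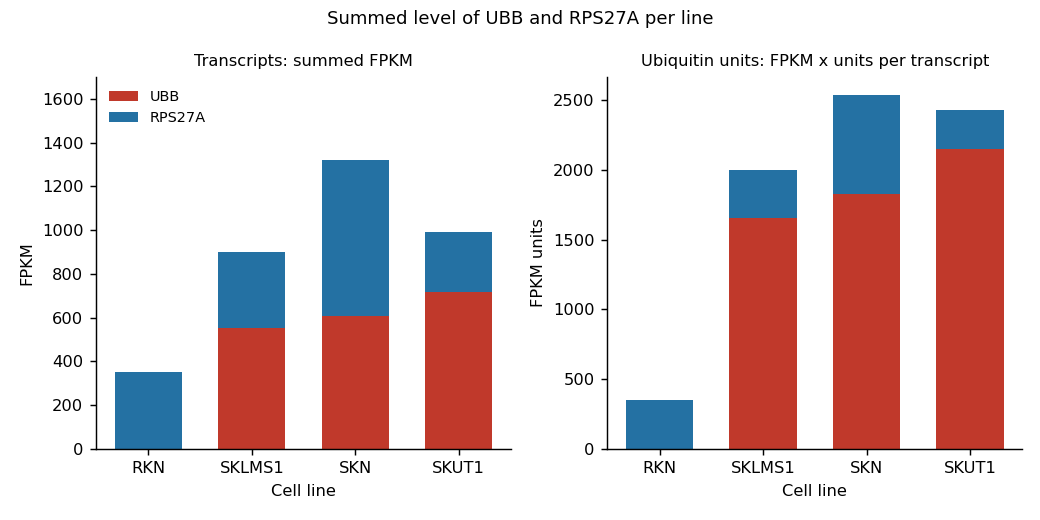
Stacked levels of UBB and RPS27A per line (1 library each), as summed FPKM on the left and as FPKM times ubiquitin units per reference transcript on the right, both axes from 0. RKN is the lowest bar in both panels, at 352 FPKM and 353 FPKM units, and has no visible UBB part.

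The makeup of the sum differed between the lines. RPS27A made up 99.9% of the summed FPKM of the pair in RKN, against 38.8% in SKLMS1, 54.0% in SKN and 27.7% in SKUT1. Counted in units it made up 99.8% in RKN, against 17.4% in SKLMS1, 28.1% in SKN and 11.3% in SKUT1. Any share of a total is larger wherever another part is missing, so these shares do not give the level of RPS27A.

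RPS27A was also set among 72 other cytosolic ribosomal protein genes of its line, those of 76 listed whose FPKM reached 1 in any line. It lay below their median in all 4 lines. On the log2 level scale, RPS27A minus that median was -1.02 in RKN, against -1.05 in SKLMS1, -0.54 in SKN and -0.87 in SKUT1. The median itself was at an FPKM of 717 in RKN, against 723 in SKLMS1, 1037 in SKN and 505 in SKUT1. RPS27A and the ribosomal protein genes thus had the same order at both ends, with SKN highest and SKUT1 lowest. The number of the 72 genes above RPS27A was 49 in RKN, against 51 in SKLMS1, 47 in SKN and 50 in SKUT1. In its place among ribosomal protein genes, RKN was within the range of the other lines. RKN had 2 of the 72 genes at least 2-fold higher than the mean of the other lines (RPS28 and RPL9) and 1 lower (RPL37), with a median difference of -0.13. These were 2.78% and 1.39%, below the 11.6% higher and 16.6% lower over all genes. The count of lower genes was 4 without SKUT1 and 0 without SKLMS1 or without SKN, and the median was 0.10 without SKN. SKN had 17 of 72 at least 2-fold higher, 23.6% beside 9.97% over all genes, and a median of 0.68. RPS28 was at 146 in RKN, against 0.370 in SKLMS1, 211 in SKN and 0 in SKUT1, so it was higher in SKN than in RKN. RPL9 was at 58.4 in RKN, against 5.39 in SKLMS1, 10.5 in SKN and 45.9 in SKUT1, so SKUT1 was near RKN. Ribosomal protein genes have many near copies in the genome, so single values of this group are uncertain.

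**Figure D3:**
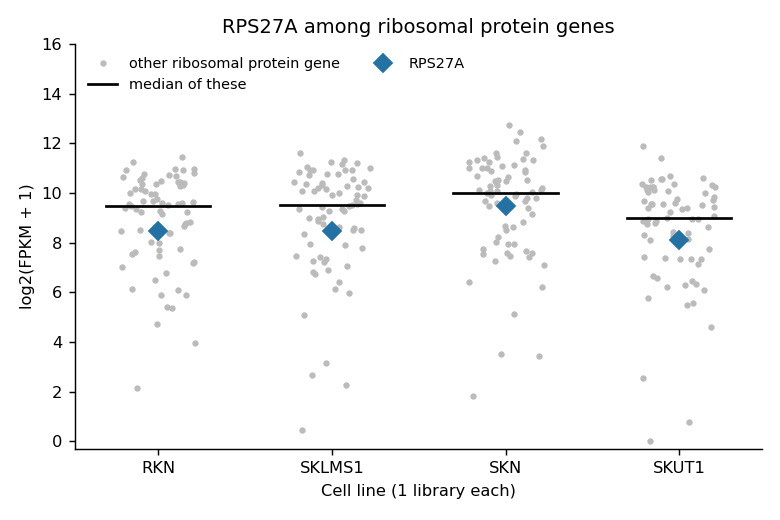
log2(FPKM + 1) of RPS27A (diamonds) and of 72 other ribosomal protein genes (grey points), with their median as a bar, in each line (1 library each). RPS27A minus the median runs between -1.05 and -0.54 over the lines, and RPS27A and the median are both highest in SKN.

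The genes that use ubiquitin were then counted in lists, and each count is read beside the 11.6% of all genes that were 2-fold higher in RKN and the 16.6% that were lower. The first list holds the E1 enzymes, which activate ubiquitin and its relatives. None of its 9 members reached 2-fold in either direction in RKN, while 3 were 2-fold higher on the TPM scale, where 20.5% of all genes were. The median difference was 0.16 on the FPKM scale, beside -0.04 over all genes. UBA1, the main E1 of ubiquitin, was at an FPKM of 217 in RKN, against 139 in SKLMS1, 97.5 in SKN and 161 in SKUT1, the highest of the 4 lines. UBA6, the other E1 for ubiquitin, was likewise highest in RKN, at 19.2, against 6.59 in SKLMS1, 16.6 in SKN and 11.1 in SKUT1. The differences were 0.73 for UBA1 and 0.78 for UBA6.

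The E1 subunits for ubiquitin's relatives went both ways. For SUMO, SAE1 was at 120 in RKN, against 52.7 to 78.4 in the other lines, and its partner UBA2 was at 57.9, against 45.9 to 56.9. For NEDD8, NAE1 was at 79.0 in RKN, against 39.0 to 76.9, and UBA3 was at 33.0, against 34.1 to 44.4. UBA7, for ISG15, was at 3.01, ATG7, for autophagy, at 5.66, and MOCS3, for URM1, at 5.73 in RKN, each inside the range of the other lines.

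Of 38 E2 enzymes, which carry ubiquitin to its targets, 0 were 2-fold higher in RKN and 3 were lower, with a median of -0.09. The lower share of 7.89% was under the 16.6% of all genes, and no member reached the size that 11.6% of all genes did upward. The lower ones were AKTIP, an inactive E2 relative, at 2.57 in RKN, against 6.47 to 9.82, UBE2V1 at 58.8, against 86.5 to 193, and UBE2B at 14.8, against 25.0 to 39.0. UBE2V1, an inactive variant, pairs with UBE2N to build chains linked through lysine residues. UBE2N was the E2 furthest up in RKN, at 69.1, against 31.4 to 49.4 (difference 0.76).

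The proteasome, which breaks down ubiquitin-marked proteins and spares the ubiquitin, had 31 subunits in the list whose FPKM reached 1 in any line. PSMC1, at 0.259 to 0.444 over the 4 lines, was left out by that filter. In RKN 0 were 2-fold higher and 0 lower, beside 11.6% higher and 16.6% lower over all genes, with a median of 0.16. The ends of the list were PSMA4, at 339 in RKN, against 158 to 210 (0.84), and PSMA7, at 321, against 263 to 824 (-0.53). Deubiquitinating enzymes release ubiquitin for reuse. Of 45 ubiquitin-specific proteases, 1 was higher in RKN, USP28 at 12.4, against 3.27 to 8.29, and 1 lower, USP53 at 0.408, against 1.40 to 17.1, with a median of 0.13. That was 2.22% each way, under the 11.6% and 16.6% of all genes, and 2 were higher without SKUT1. The UCH, OTU, MJD and JAMM families formed a further list, and not all of its members act on ubiquitin. Of 31 members counted, 1 was higher and 2 were lower, with a median of -0.09. These shares, 3.23% and 6.45%, were likewise under the 11.6% and 16.6% of all genes, and 2 were higher without SKN or without SKUT1. STAMBPL1, the higher one, was at 21.0 in RKN, against 0.756 in SKLMS1, 2.42 in SKN and 22.1 in SKUT1, so it did not set RKN apart from SKUT1. TNFAIP3 (A20), a brake on NF-kB signalling, was at 1.43 in RKN, against 3.35 to 26.6, and OTUD1 at 0.428, against 2.11 to 3.83.

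The list of ubiquitin-like modifiers had 2 of 18 members higher and 4 lower in RKN, with a median of -0.39. These were 11.1% higher beside 11.6% over all genes and 22.2% lower beside 16.6%. The list includes ATG5, the protein to which ATG12 is joined, which is not itself a modifier. GABARAPL1, an ATG8 protein of the autophagosome, was at 0.678 in RKN, against 24.6 in SKLMS1, 15.8 in SKN and 104 in SKUT1. The difference was -4.41. GABARAPL2, UBL3 and UFM1 were the other lower ones, with differences of -1.19, -2.12 and -1.64. ISG15, the interferon-induced modifier, was higher, at 321 in RKN, against 38.3 in SKLMS1, 57.9 in SKN and 69.8 in SKUT1 (2.56). MAP1LC3A was counted as higher too, at 17.3 in RKN, against 14.7 in SKLMS1, 0.0543 in SKN and 26.8 in SKUT1. It lay between SKLMS1 and SKUT1, and SKN alone was low, so without SKN 1 member was higher. The lower ones numbered 5 without SKN and 3 without SKUT1.

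Ubiquitin receptors and shuttles, with the p97 segregase and its cofactors, had 1 of 31 higher and 3 lower, with a median of -0.28. The shares of 3.23% and 9.68% were under the 11.6% and 16.6% of all genes. The lower ones numbered 6 without SKLMS1 and 1 without SKUT1, where 2 were higher. OPTN (optineurin), an autophagy receptor, was at 8.31 in RKN, against 29.6 to 64.7 (-2.30), TAX1BP1 at 34.6, against 53.4 to 121, and UBXN6 at 26.1, against 36.4 to 91.5. UBQLN4, a shuttle to the proteasome, was the higher one, at 19.4 in RKN, against 5.85 to 10.6 (1.23). The linear ubiquitin machinery had 0 of 8 higher, beside 11.6% of all genes, and 2 lower, 25.0% beside 16.6%, with a median of -0.45. TNIP1, which binds linear chains, was at 17.4 in RKN, against 72.2 in SKLMS1, 290 in SKN and 40.3 in SKUT1. IKBKG (NEMO) was at 1.56 in RKN, against 3.77 to 5.10.

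The heat shock list had the largest share of higher members of the lists counted in RKN. At least 2-fold higher were 7 of its 21 measured genes, 33.3% beside 11.6% over all genes, and 1 was lower, 4.76% beside 16.6%, with a median of 0.70. With 1 other line left out, 5 to 7 were higher, and the lower ones numbered 3 without SKLMS1 and 2 without SKN. HSPA8, the constitutive cytosolic HSP70, was at an FPKM of 1387 in RKN, against 432 in SKLMS1, 624 in SKN and 915 in SKUT1. The mitochondrial chaperonin pair was also highest in RKN. HSPD1 was at 413 in RKN, against 177 in SKLMS1, 211 in SKN and 104 in SKUT1. HSPE1 was at 245 in RKN, against 144 in SKLMS1, 122 in SKN and 59.3 in SKUT1. DNAJB1, an HSP40 co-chaperone, was at 132 in RKN, against 54.7 to 75.7. HSPA8 and DNAJB1 were named after their values were seen. HSF2, CHORDC1 and HSPA4L were the further ones, with differences of 1.17, 1.41 and 1.77. On the TPM scale 10 of the 21 were at least 2-fold higher, where 20.5% of all genes were.

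The heat shock list was not uniform. CRYAB, a small heat shock protein, was counted as lower, at 0.0612 in RKN, against 15.0 in SKLMS1 and 936 in SKUT1, and it was listed at 0 in SKN. HSPA1A and HSPA1B, the heat-inducible HSP70 pair, were listed at 0 in all 4 lines. They are near-identical copies, are mentioned after their values were seen, and may be failed estimates at 0. A second list of proteotoxic and integrated stress genes had 0 of 15 higher and 2 lower in RKN, with a median of -0.82. The lower share of 13.3% was under the 16.6% of all genes, and 11.6% of all genes were higher. This count rests on the set of lines, as 6 were lower without SKLMS1, 5 without SKN and 5 without SKUT1, and 5 against the median of the other lines. Without SKUT1, 1 was higher. ZFAND2A (AIRAP), a proteasome-associated protein, was at 6.82 in RKN, against 20.8 to 46.9, and XBP1, a factor of the unfolded protein response, at 32.1, against 80.2 to 146. Both stress lists thus had medians on opposite sides. A list of 28 reference genes had 1 higher and 3 lower in RKN, 3.57% and 10.7% beside 11.6% and 16.6% of all genes, with a median of -0.20. Without SKN 2 were higher and without SKUT1 0 were.

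**Figure D4:**
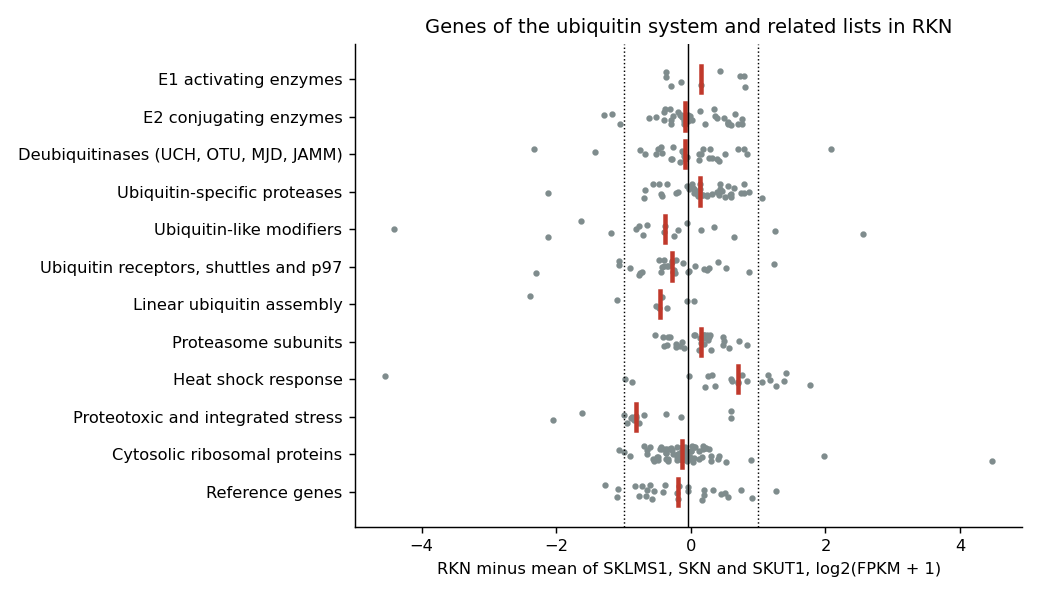
RKN minus the mean of SKLMS1, SKN and SKUT1 in log2(FPKM + 1) for each measured gene of 12 lists (grey points), with the list median as a red bar, the median of all genes as a solid line and 2-fold as dotted lines. Heat shock genes have the highest median, at 0.70, and proteotoxic and integrated stress genes the lowest, at -0.82.

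Genes next to UBB and RPS27A in RefSeq gene order (GRCh38.p14, used for order only) were looked at in the same way. Of 20 neighbours of UBB, 11 were measured, 1 was at least 2-fold higher in RKN and 1 lower, with a median of 0.17. Of all genes 11.6% were higher and 16.6% lower, so 1 of 11 either way does not set these neighbours apart. Without SKUT1 2 were higher, and without SKLMS1 2 were lower. CENPV, next to UBB on one side, was at an FPKM of 57.4 in RKN, against 0.745 in SKLMS1, 15.1 in SKN and 4.31 in SKUT1. It was highest in RKN, where UBB was lowest. MIR1288, next on that side, was listed at 0 in all 4 lines, and PIGL, after it, was at 3.67 in RKN, against 4.56 in SKLMS1, 5.41 in SKN and 2.55 in SKUT1. TRPV2, next on the other side, was listed at 0 in RKN and also in SKLMS1, where UBB was high, against 23.5 in SKN and 39.0 in SKUT1. Beyond it, C17orf76-AS1 (now SNHG29), a host of small nucleolar RNAs, was at 446 in RKN, against 297 in SKLMS1, 2289 in SKN and 588 in SKUT1. SNORD49B was listed at 0 in all 4. Of the genes on either side of UBB, CENPV was thus highest in RKN and TRPV2 was listed at 0 there, and no other measured neighbour reached 2-fold in RKN. The copy number and methylation of UBB were not measured.

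**Figure D5:**
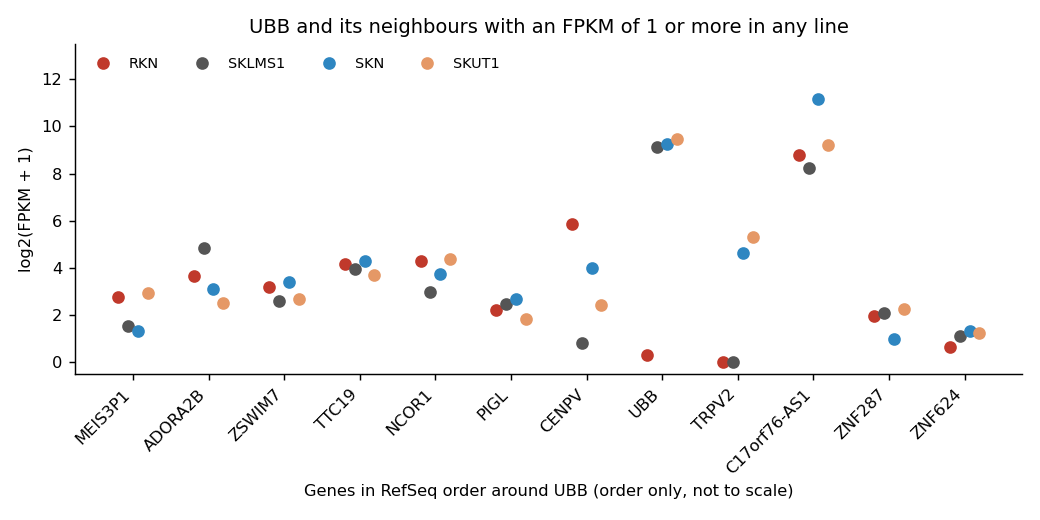
log2(FPKM + 1) in RKN, SKLMS1, SKN and SKUT1 (1 point per library) of UBB and its 11 measured neighbours in RefSeq order, not to scale. UBB in RKN lies at 0.30, far below the other 3 lines, while CENPV on its left is highest in RKN.

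RPS27A had 11 measured neighbours of 20, with 1 higher and 2 lower in RKN and a median of 0.18, near the 11.6% and 16.6% of all genes. Without SKLMS1, 0 were higher. Its nearest measured neighbours were MTIF2 on one side, at 18.0 in RKN, against 14.4 in SKLMS1, 25.3 in SKN and 13.1 in SKUT1. On the other side RTN4 was at 130 in RKN, against 251 in SKLMS1, 320 in SKN and 859 in SKUT1. MTIF2 followed the order of RPS27A across the lines and RTN4 did not. CCDC88A was at 15.5 in RKN, against 8.32 to 9.75 in the other lines. CLHC1, EML6 and PRORSD1P were below an FPKM of 1 in every line.

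The genes most like each member were taken as the 8 with the nearest centred log2 profile over the 4 lines, among 8647 genes whose FPKM reached 10 in any line. For UBB these were GNG11, TINAGL1, PRKCDBP, SRGN, PAM, TGFBI, PLOD2 and MT1E, each lowest in RKN. GNG11, a G protein gamma subunit, was nearest, at 0.0793 in RKN, against 248 in SKLMS1, 273 in SKN and 157 in SKUT1. Its distance was 1.41. TINAGL1, PRKCDBP and MT1E were listed at 0 in RKN. None of the 8 was as close to UBB as the genes nearest RPS27A were to it, whose distances were at most 0.174. UBB was chosen for its low value in RKN, and this distance is not scaled for the width of a profile. Neither that gap nor the low RKN levels of the 8 genes are thus a separate result. Among the genes nearest RPS27A were RTEL1, RPS13, WDR89, SNX8, KIAA0391, RPAP1 and NT5DC2. RPS13, a ribosomal protein gene, was at 1092 in RKN, against 979 in SKLMS1, 2066 in SKN and 821 in SKUT1. Over only 4 points many genes can look alike, and with Pearson's r in place of the distance 0 of the 8 were shared for UBB and 3 of the 8 for RPS27A.

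Markers of smooth muscle and of other cell types differed between the lines, and their part in these results was not tested. The 9 smooth muscle markers summed to an FPKM of 205 in RKN, against 844 in SKLMS1, 97.8 in SKN and 6299 in SKUT1. TAGLN was at 45.5 in RKN, against 531 in SKLMS1, 5.82 in SKN and 3816 in SKUT1. ACTA2 was at 84.7 in RKN, against 127 in SKLMS1, 1.37 in SKN and 1085 in SKUT1. Of the 9 markers, 0 were 2-fold higher in RKN and 4 lower, 44.4% beside 16.6% lower and 11.6% higher over all genes. SKN had 5 of the 9 lower, 55.6% beside 10.8% over all genes, so this did not set RKN apart from SKN. SKUT1 had 6 of the 9 higher, 66.7% beside 17.9% over all genes. CNN1 was at 2.45 in RKN, against 29.6 in SKLMS1, 0.228 in SKN and 86.4 in SKUT1. CALD1 was at 37.1 in RKN, against 44.1 to 1246, and SMTN at 32.9, against 22.9 to 45.6. LMOD1 was at 0.661 in RKN, against 0.0523 to 14.9, and MYOCD was at 0.00897, against 0.00596 to 5.16. MYH11 and DES were at 1.15 or less in all 4 lines. The 4 epithelial markers summed to 10.3 in RKN, against 195 to 549 in the other lines. KRT8 was at 1.99 and KRT18 at 7.84 in RKN, against 9.42 to 268 and 42.8 to 283 in the other lines, while EPCAM and CDH1 were at 1.80 or less in all 4. PTPRC and CD3E of leukocytes and PECAM1 and CDH5 of endothelium were at 0.213 or less. CD14 was at 1.64 or less, and KDR reached 4.91 in SKN only.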

How the data were processed

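Poly(A) RNA of 4 untreated leiomyosarcoma lines was sequenced, 1 library per line, per the labels' protocols, with a strand-marking kit and single-end reads of 75 bases. The deposited values are FPKM per gene symbol, made by the authors. STAR, Cufflinks and the build hg19 are named, without versions, per the submitters' processing notes. The sources used here do not give the annotation, the strand setting or the treatment of multiply mapping reads, and no hg19 coordinates were used. The table held 23610 rows. Left out were 28 whose symbol had become a date number and 5 with an error cell. Genes whose FPKM reached 1 in any line were kept, 13713 in all. From 6793 to 7534 genes of a line were listed at 0.

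Values were compared as log2(FPKM + 1), and RKN was set against the mean of the other 3 lines. Groups of 1 library allow no test, p-value or standard error, so genes at 2-fold (1 on that scale) or 4-fold (2) were counted beside the share of all genes. Members and lists were chosen with earlier results of these data known. Named are UBB and RPS27A, list members at 2-fold in RKN (up to 5 per direction) with each list's ends, E1 genes, the 3 nearest neighbours on each side of a member, the 8 genes most like it, and markers. Others are marked as chosen after their values were seen, and some genes that this rule takes are not reported here. Sequences and 75-base windows came from GENCODE release 29 (GRCh38), taking the protein-coding transcript with the lowest number. Counting used Python 3.11.15 with numpy 2.4.6, pandas 2.3.3, Biopython 1.88 and matplotlib 3.10.9, and was tested on simulated data. Alternatives were pseudocounts of 0.1 and 5, TPM, median-of-ratios scaling, no filter or an FPKM minimum of 5, the median of the other lines, other likeness measures, weighting by ubiquitin units, and leaving out each line.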

Additional observations from a re-analysis of the deposited data

How the results depend on the processing

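Of 438 alternative values, 354 counted as unchanged. For this a difference had to keep its sign and its side of 2-fold, and a count or ratio had to stay within a set margin. Of the values at 2-fold, 0 changed sign. UBB was lower in RKN in all alternatives run. The RPS27A difference of RKN was near 0 and its sign depended on the choice. It was -0.22 as reported, 0.077 on the TPM scale, 0.011 against the median of the other lines, and -0.50 to 0.18 with 1 other line left out (0.18 without SKN). The RKN sum of UBB and RPS27A over the mean of the other lines was 0.329, and 0.152 in units or 0.187 in units on the TPM scale. Units on the TPM scale were chosen after seeing the data. RPS27A against the mean of the other ribosomal protein genes, in place of their median, was -0.42 in RKN and -0.45 in SKLMS1, no longer at 2-fold. The TPM scale raised the share of higher among 2-fold genes of RKN to 56.9%, against 41.0% on the FPKM scale, and put 3 of 9 E1 enzymes, 5 of 45 ubiquitin-specific proteases and 2 of 31 proteasome subunits at 2-fold higher, where 20.5% of all genes were. Only the E1 share exceeds that. List counts are small and depend on the lines compared: the lower ubiquitin receptors numbered 1 to 6, the lower proteotoxic and integrated stress genes 5 to 6 and the lower ribosomal protein genes 0 to 4 with 1 other line left out, against 3, 2 and 1 with all lines. Higher E1 enzymes numbered 1 without SKN and higher E2 enzymes 1 without SKLMS1 and 1 without SKN, against 0 with all lines. No paired analysis was possible because each line has 1 library and the labels give no replicate numbers. The limits are the single library per line, an unknown depth and an annotation that is not stated.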
